A study of Mus musculus with 25 samples.

Results

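The transcript levels of 10 endothelial genes were followed in heart tissue of 25 male mice. Vwf, Npr3, Plvap, Ackr1 and Emcn are genes of vein and endocardium, and Pecam1, Cdh5, Kdr, Nos3 and Tek are carried by most endothelial cells and are called pan-endothelial here. They are 10 of the 35969 genes in the table, and the level of each was the sum over all its listed transcripts. The genes were chosen on the measured levels in the diet contrast in WT mice and the carnosine contrast, with earlier results of these data known. Every contrast with a WT group reuses mice of those contrasts, which leaves the diet contrast within GPx4+/- mice as the one that does not. Its estimate of the spread, however, is shared by all 4 groups without carnosine, the WT groups included. In all the other contrasts the values of the 10 genes are therefore a description and carry no p-value. Nothing is read from the counts given there of members called or at an unadjusted p under 0.05.

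The mice were WT and GPx4+/- littermates, 5 in each of 5 groups, from a line kept by backcross to C57BL6/J. GPx4+/- mice are heterozygous for Gpx4, the glutathione peroxidase that reduces lipid hydroperoxides. From 8 to 10 weeks of age they received either a control diet (CNTL, 6% of kcal from fat) or a high fat high sucrose diet (HFHS, 35.5% of kcal from fat and 38% from sucrose) for 16 weeks. A further group of WT mice on HFHS drank water with 80 mM carnosine, a histidine-containing dipeptide that scavenges reactive aldehydes, from week 7 (WT HFHS + Carnosine). The WT groups are thus WT CNTL, WT HFHS and WT HFHS + Carnosine, those of the other genotype are GPx4+/- CNTL and GPx4+/- HFHS, and GPx4+/- mice given carnosine were not analysed here. All mice were fasted and then given dextrose or saline before the hearts were taken, and which mouse received which is not given in the sources used here. No cells were sorted, so each value is a mean over all cells of a small piece of heart tissue. In such values fewer cells of a type and less RNA per cell cannot be told apart.

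Von Willebrand factor, the product of Vwf, is a large multimeric glycoprotein that endothelial cells store in Weibel-Palade bodies and release into blood, where it tethers platelets to damaged vessel walls and carries coagulation factor VIII. Its gene is unevenly active along the vascular tree, with much higher levels in veins and endocardium than in the capillaries that make up most of the heart's endothelium. Npr3 encodes the clearance receptor for natriuretic peptides and marks endocardium in the heart. Plvap forms the diaphragms of fenestrae and caveolae, Ackr1 is a chemokine-binding receptor of venules, and Emcn encodes the sialomucin endomucin.

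Values are TPM, the share of all transcripts corrected for transcript length and set to a total of 1000000 per library, scaled between libraries by median ratios (scaled TPM), and fold changes are on the scale of log2(scaled TPM + 0.5). The level of Gpx4 itself lay between 591 and 778 scaled TPM in the 15 WT mice and between 251 and 383 in the 10 GPx4+/- mice. Genes with a mean of at least 1 scaled TPM were tested with limma, 11984 in all, and called at a Benjamini-Hochberg adjusted p under 0.05. Of the 10 endothelial genes 9 passed this filter, and Ackr1 did not. The tissue carried clear endothelial markers, since Pecam1 was never below 57.6 and Cdh5 never below 57.0 scaled TPM. Summed atrial markers (8 genes, among them Nppa and Myl7) exceeded 500 scaled TPM in 5 of the 25 mice. These sums were 7595 and 1547 in GPx4+/- CNTL replicates 1 and 2, 4759.85 in WT CNTL replicate 3, 2815 in GPx4+/- HFHS replicate 4 and 646 in WT HFHS + Carnosine replicate 2, against at most 311 in the other 20. The values of Vwf, Npr3 and Plvap in each comparison of 5 mice with 5, and the main correlations, are given with and without these mice.

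Upstream sequences are shown for 3 of the genes, because Npr3 followed Vwf from mouse to mouse while Emcn followed Kdr (correlations are given further on). The tables used hold promoters for 5 of the 10 genes (Ackr1, Emcn, Tek, Kdr and Npr3), taken from RefSeq on GRCm38.p6. The 250 bases before the start are printed 5′ to 3′ on the gene's own strand, with capitals marking matches to the searched motifs. Npr3 lies at chr15:11907372-11907621 on the minus strand, Emcn at chr3:137340828-137341077 on the plus strand and Kdr at chr5:75978456-75978705 on the minus strand.
Npr3: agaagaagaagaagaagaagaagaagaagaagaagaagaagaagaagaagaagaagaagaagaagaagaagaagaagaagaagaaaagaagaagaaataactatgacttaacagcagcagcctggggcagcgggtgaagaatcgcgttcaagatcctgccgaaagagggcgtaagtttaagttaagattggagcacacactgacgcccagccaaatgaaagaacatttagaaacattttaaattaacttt
Emcn: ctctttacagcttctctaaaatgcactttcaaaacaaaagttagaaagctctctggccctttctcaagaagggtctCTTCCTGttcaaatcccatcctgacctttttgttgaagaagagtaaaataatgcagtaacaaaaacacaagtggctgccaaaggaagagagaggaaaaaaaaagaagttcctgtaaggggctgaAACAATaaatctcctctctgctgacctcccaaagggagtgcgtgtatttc
Kdr: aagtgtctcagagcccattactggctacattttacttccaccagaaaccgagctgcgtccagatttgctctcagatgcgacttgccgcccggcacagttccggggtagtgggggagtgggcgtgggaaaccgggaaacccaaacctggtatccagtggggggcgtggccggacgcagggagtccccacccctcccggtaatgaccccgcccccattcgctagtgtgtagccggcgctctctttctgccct
For factors of the ETS family CAGGAAG and, as another form of the same site, CCGGAAG were searched on both strands, for GATA factors AGATAA, and for SOX factors ATTGTT. Over windows of 300 bases, 250 before and 50 after the start, CAGGAAG was present in 13.3% of 32851 promoters, CCGGAAG in 8.86%, AGATAA in 11.2% and ATTGTT in 10.7%. The Emcn window held an ETS and a SOX match, both on the reverse strand, the Ackr1 window ETS and GATA matches, and the Tek window GATA and SOX matches. The Npr3 and Kdr windows held none of these letters. Except for Tek, the RefSeq starts lie at other bases than the gene boundaries of the GENCODE annotation used for the levels.

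The level of Vwf (ENSMUSG00000001930.17, GRCm38 chr6:125546774-125686679, plus strand) ranged from 9.26 to 42.3 scaled TPM over the 25 mice. In WT CNTL the mice had 10.4, 9.26, 20.1, 10.7 and 9.56 scaled TPM of Vwf (mean 12.0 ± 4.57 SD, n = 5). In WT HFHS they had 11.5, 27.8, 31.2, 42.3 and 25.5 (27.7 ± 11.1 SD, n = 5). All but 1 of the WT HFHS mice thus lay above every WT CNTL mouse, and the remaining one, replicate 1, lay within the range of WT CNTL. In GPx4+/- CNTL the values were 42.2, 11.1, 15.6, 15.5 and 11.7 (19.2 ± 13.0 SD, n = 5), and in GPx4+/- HFHS 11.7, 15.5, 18.3, 30.7 and 13.8 (18.0 ± 7.50 SD, n = 5). Each GPx4+/- group had a single mouse far above the rest, and both of these were among the mice with high atrial markers. In WT HFHS + Carnosine Vwf was 14.3, 18.9, 15.6, 10.3 and 11.2 (14.1 ± 3.48 SD, n = 5), which placed every carnosine mouse below 4 of the 5 WT HFHS mice. The order of the group means was therefore WT HFHS, GPx4+/- CNTL, GPx4+/- HFHS, WT HFHS + Carnosine and WT CNTL, and each pair of neighbours in this order overlapped in range.

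Vwf had 11 listed transcripts, and 64.7% of its level came from the coding transcript ENSMUST00000112254. A further 27.3% came from ENSMUST00000147101, which the annotation classes as a target of nonsense-mediated decay. Both followed the gene over the groups. The coding transcript averaged 8.53 scaled TPM in WT CNTL, 17.8 in WT HFHS and 8.97 in WT HFHS + Carnosine, and the other one 2.74, 7.88 and 3.43 in the same groups.

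Npr3 (ENSMUSG00000022206.7, chr15:11839896-11907287, minus strand) was a lowly expressed gene. Its values were 3.76, 3.41, 5.86, 2.80 and 3.46 scaled TPM in WT CNTL (3.86 ± 1.17 SD, n = 5) and 3.03, 6.01, 7.19, 7.36 and 5.62 in WT HFHS (5.84 ± 1.74 SD, n = 5). In GPx4+/- CNTL they were 14.6, 4.51, 4.65, 3.62 and 2.84, where replicate 1 alone was more than 3 times any other mouse of its group. The GPx4+/- HFHS mice had 4.34, 6.60, 4.55, 8.19 and 4.13. With carnosine the 5 mice lay close together, at 4.16, 4.60, 4.81, 3.85 and 4.69 (4.42 ± 0.404 SD, n = 5).

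Plvap (ENSMUSG00000034845.6, chr8:71497765-71511752, minus strand) was lower still. It measured 2.92, 1.63, 5.11, 1.79 and 2.01 scaled TPM in WT CNTL (2.69 ± 1.44 SD, n = 5) and 1.65, 4.89, 3.60, 6.13 and 4.54 in WT HFHS (4.16 ± 1.67 SD, n = 5). The GPx4+/- CNTL values were 9.11, 3.68, 5.02, 3.18 and 2.17 (4.63 ± 2.70 SD, n = 5), the highest group mean of this gene. GPx4+/- HFHS mice had 1.91, 2.96, 2.59, 5.24 and 1.83, and carnosine mice 1.99, 3.03, 2.53, 2.26 and 3.23. As with Vwf and Npr3, the top mouse of WT CNTL was replicate 3, that of GPx4+/- CNTL replicate 1, that of WT HFHS replicate 4 and that of GPx4+/- HFHS replicate 4.

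Emcn (ENSMUSG00000054690.17, chr3:137341067-137432185, plus strand) was both more abundant and steadier than the other vein and endocardium genes. It averaged 25.2 ± 3.08 scaled TPM in WT CNTL, 29.3 ± 1.95 in WT HFHS, 29.8 ± 5.46 with carnosine, 27.3 ± 3.75 in GPx4+/- CNTL and 29.1 ± 1.94 in GPx4+/- HFHS (SD, n = 5 each). Over all mice it spanned 20.3 to 38.3 scaled TPM, and the mouse highest in Vwf, WT HFHS replicate 4, had 29.0. Ackr1 (ENSMUSG00000037872.5, chr1:173331886-173333750, minus strand) stayed between 0.0670 and 0.765 scaled TPM in every mouse. Its venule receptor transcript was thus too scarce to be tested, and its group means ran from 0.166 in WT CNTL to 0.302 in WT HFHS with SDs of 0.0673 and 0.276.

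**Figure D1:**
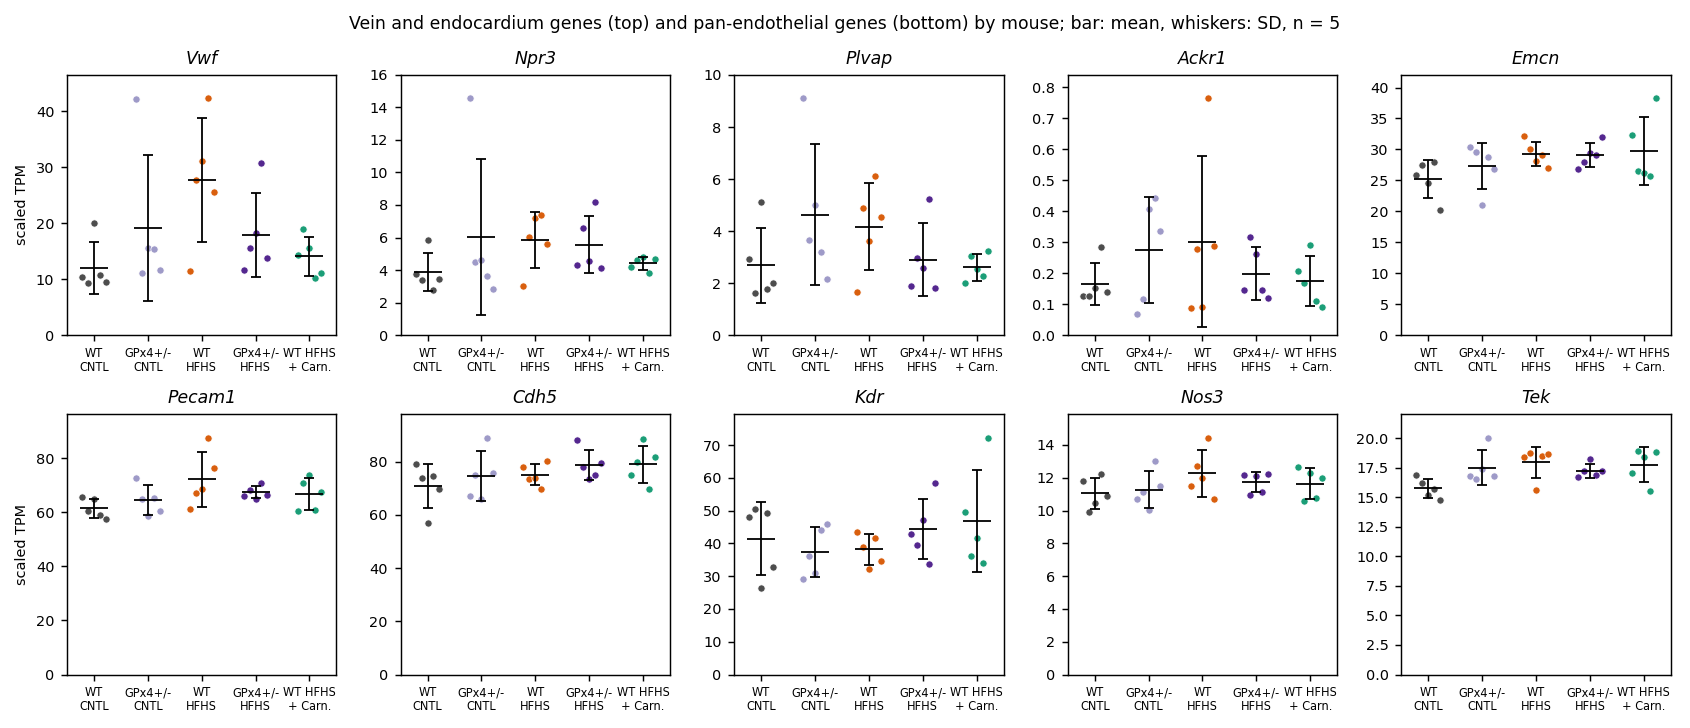
Scaled TPM of the 10 genes (y axes, from 0, one panel per gene) in the 5 groups (x axes), each point a mouse, with the group mean as a bar and the SD as whiskers. Vwf, Npr3 and Plvap share a single high mouse in GPx4+/- CNTL (42.2, 14.6 and 9.11 scaled TPM) and a single low mouse in WT HFHS (11.5, 3.03 and 1.65), and Pecam1 has the same mice highest in GPx4+/- CNTL (72.8) and lowest in WT HFHS (61.2).

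The pan-endothelial genes had means over all mice from 11.6 (Nos3) to 75.7 (Cdh5) scaled TPM. Pecam1 (ENSMUSG00000020717.19, chr11:106654217-106750628, minus strand), the CD31 adhesion molecule, averaged 61.5 ± 3.58 scaled TPM in WT CNTL, 72.2 ± 10.2 in WT HFHS, 66.7 ± 5.94 with carnosine, 64.4 ± 5.57 in GPx4+/- CNTL and 67.4 ± 2.25 in GPx4+/- HFHS (SD, n = 5 each). Its highest value, 87.7, was in WT HFHS replicate 4, the mouse that was also highest in Vwf. Cdh5 (ENSMUSG00000031871.9, chr8:104101625-104144511, plus strand), the VE-cadherin of adherens junctions, had group means from 70.8 in WT CNTL to 79.0 in WT HFHS + Carnosine and was lowest, at 57.0, in WT CNTL replicate 3, a mouse high in Vwf. Kdr (ENSMUSG00000062960.10, chr5:75932827-75978458, minus strand), the main signalling receptor for VEGF-A, was the most variable of the 5 and ran from 26.5 in the same WT CNTL mouse to 72.3 in a carnosine mouse. Nos3 (ENSMUSG00000028978.12, chr5:24364810-24384474, plus strand), the endothelial nitric oxide synthase, stayed between 9.92 and 14.5, and Tek (ENSMUSG00000006386.15, chr4:94739289-94874976, plus strand), the angiopoietin receptor TIE2, between 14.8 and 20.1.

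The spread between mice of a group separated the genes sharply. The SD of log2 values within groups was 0.571 for Vwf, 0.554 for Plvap and 0.495 for Npr3, above those of 97.3%, 97.1% and 96.4% of the tested genes. Kdr followed at 0.335 (91.7%) and Emcn at 0.177 (63.8%). Cdh5, Pecam1, Nos3 and Tek had 0.138, 0.126, 0.123 and 0.0959, and the last of these exceeded only 17.2% of tested genes. The highest mouse had 4.57 times the lowest for Vwf, 5.19 times for Npr3 and 5.58 times for Plvap, but 1.52 times for Pecam1 and 1.35 times for Tek.

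To contrast the gene sets within each library, the mean log2 level of the 5 pan-endothelial genes was taken from that of the 5 vein and endocardium genes. The difference was below 0 in every mouse, since the pan-endothelial mean was the higher one. It was -2.73 ± 0.36 in WT CNTL, -2.32 ± 0.37 in WT HFHS, -2.72 ± 0.10 with carnosine, -2.40 ± 0.49 in GPx4+/- CNTL and -2.58 ± 0.35 in GPx4+/- HFHS (SD, n = 5 each). The highest group mean, in WT HFHS, exceeded that of WT CNTL by about 1 SD of either group, and its replicate 1 (-2.95) sat at the level of the lowest WT CNTL mouse (-2.96). Between groups it was the vein and endocardium mean that differed more, from 2.27 ± 0.26 in WT CNTL to 2.79 ± 0.40 in WT HFHS, while the pan-endothelial mean ran from 5.00 ± 0.14 to 5.13 ± 0.14. No test was applied to these differences, since they compare sets of genes chosen with the WT diet and carnosine contrasts known. Without the 5 mice high in atrial markers the means were -2.89 in WT CNTL, -2.76 with carnosine, -2.59 in GPx4+/- CNTL and -2.71 in GPx4+/- HFHS, and WT HFHS kept all its mice.

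**Figure D2:**
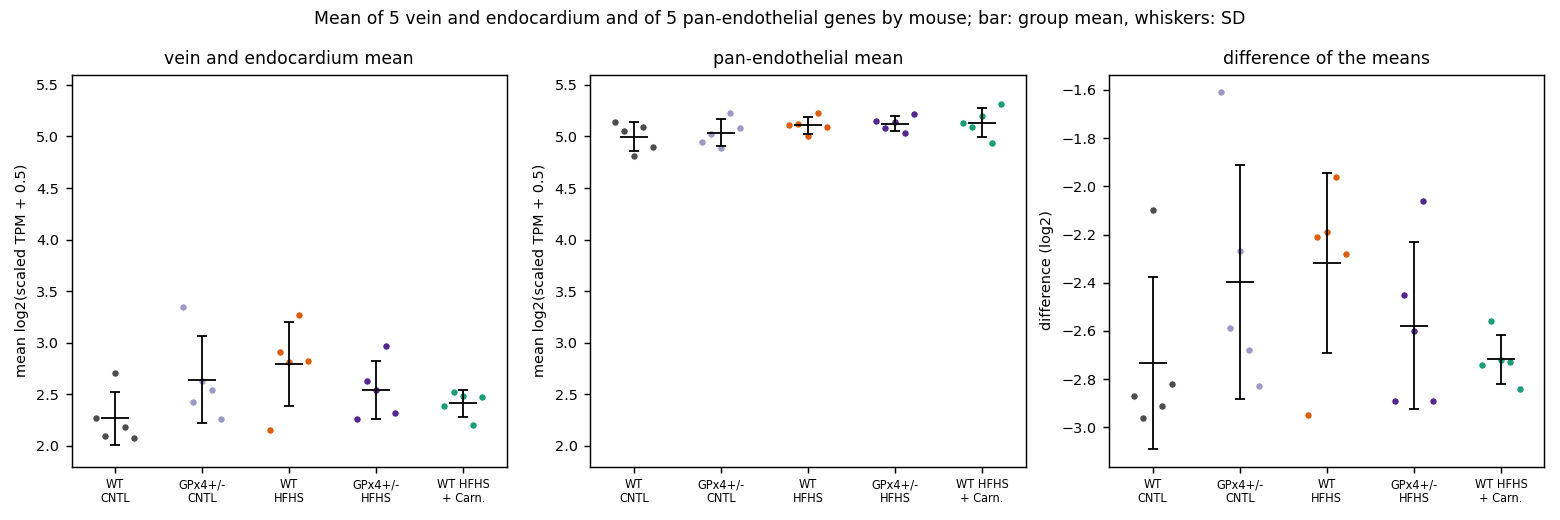
Mean log2(scaled TPM + 0.5) of the vein and endocardium genes, of the pan-endothelial genes, and their difference (y axes) by group (x axes), each point a mouse, bars the group mean and whiskers the SD (n = 5). The right panel shows 4 WT HFHS mice between -2.28 and -1.96 and 1 at -2.95, with the 5 carnosine mice between -2.84 and -2.56.

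Diet was first compared in WT mice. The mean of Vwf was 2.30 times as high in WT HFHS as in WT CNTL (log2 difference 1.12, SE 0.355). It was 1.51 times as high for Npr3 (0.52, SE 0.319), 1.55 times for Plvap (0.55, SE 0.352), 1.82 times for the scarce Ackr1 and 1.16 times for Emcn (0.22, SE 0.0929). Among the pan-endothelial genes the log2 difference was 0.22 for Pecam1 (SE 0.0766), 0.18 for Tek (SE 0.0590), 0.14 for Nos3 (SE 0.0783), 0.09 for Cdh5 (SE 0.0847) and -0.08 for Kdr (SE 0.178). For both Pecam1 and Tek 4 of the 5 WT HFHS mice lay above all WT CNTL mice. By limma 0 of the 9 tested members were called in this comparison, against 1.18% of all tested genes. Of the 5 pan-endothelial genes 2 had an unadjusted p under 0.05, which 16.5% of all tested genes had. No member separated the groups without overlap, which 4.51% of tested genes did.

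The WT CNTL mouse that overlapped was replicate 3, which carried 4759.85 scaled TPM of atrial markers. Leaving out the 5 atrial-rich mice was chosen after seeing the data, and it removed this overlapping mouse but no WT HFHS mouse. The remaining WT CNTL mice had 9.26 to 10.7 scaled TPM of Vwf (9.99 ± 0.689 SD, n = 4), and the log2 difference was 1.31 (SE 0.255). It was 1.14 (SE 0.234) when WT HFHS replicate 4, with the highest smooth muscle and valve sums of the series (1355 and 179 scaled TPM), was left out as well. Without the 5 atrial-rich mice Npr3 was at 0.67, Plvap at 0.78 and Emcn at 0.21. Emcn ranged from 0.14, without WT CNTL replicate 5, to 0.26 over the alternatives run. Over the same alternatives Cdh5 ranged from 0.02 to 0.13 and Kdr from -0.26 to 0.00.

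In GPx4+/- mice the same diet contrast could be tested for all genes but Ackr1. The log2 difference between GPx4+/- HFHS and GPx4+/- CNTL was 0.01 for Vwf (SE 0.355, 95% interval -0.73 to 0.76, adjusted p = 0.988), 0.08 for Npr3 (SE 0.319, adjusted p = 0.930) and -0.53 for Plvap (SE 0.352, adjusted p = 0.457), all by limma. Emcn had 0.10, Kdr 0.25, Cdh5 0.09, Pecam1 0.07, Nos3 0.06 and Tek -0.02, with adjusted p-values of 0.507 to 0.903. The count of called members was 0 of 9 by limma, with 0 at an unadjusted p under 0.05, against 3.34% of tested genes called and 18.3% at an unadjusted p under 0.05. No member separated these groups, which 4.47% of genes did. Leaving out GPx4+/- CNTL replicate 1, the mouse with 42.2 scaled TPM, moved Vwf to 0.34, Npr3 to 0.44 and Plvap to -0.27, with none of them called. Without GPx4+/- HFHS replicate 4 Vwf was at -0.19 and Plvap at -0.74, and without GPx4+/- CNTL replicate 5 Npr3 was at -0.11, again without a call. The signs of the Vwf and Npr3 values thus turned with single mice. Without the 5 mice high in atrial markers Vwf was at 0.05, Npr3 at 0.36, Plvap at -0.45 and Emcn at 0.19.

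Whether diet acted differently by genotype was read from the interaction term. It was -1.10 (SE 0.502) for Vwf, -1.08 (SE 0.498) for Plvap, -0.44 (SE 0.451) for Npr3 and -0.12 (SE 0.131) for Emcn, which are values without a test. For the pan-endothelial genes it was -0.20 for Tek (SE 0.0834), 0.33 for Kdr (SE 0.252), -0.15 for Pecam1 (SE 0.108), -0.08 for Nos3 (SE 0.111) and -0.01 for Cdh5 (SE 0.120). limma called 0 of the 9 members and 0% of all tested genes. An unadjusted p under 0.05 was found for 1 of the 5 pan-endothelial genes and for 7.14% of all genes. Without GPx4+/- CNTL replicate 1 the value of Vwf was -0.78, that of Plvap -0.82 and that of Npr3 -0.09. Leaving out all 5 mice high in atrial markers, of which this is one, gave -1.27 for Vwf, -0.30 for Npr3 and -1.22 for Plvap.

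Averaged over both genotypes, the diet difference was 0.57 for Vwf (SE 0.251), 0.30 for Npr3 (SE 0.226), 0.16 for Emcn (SE 0.0657) and 0.01 for Plvap (SE 0.249). Pecam1 had 0.14 (SE 0.0542), Nos3 0.10 (SE 0.0554), Cdh5 0.09 (SE 0.0599), Kdr 0.08 (SE 0.126) and Tek 0.08 (SE 0.0417). Again 0 of 9 members were called by limma, while 8.33% of tested genes were. An unadjusted p under 0.05 was found for 1 of the 5 pan-endothelial genes and for 24.5% of all genes. Pecam1 was at 0.17 (SE 0.0504) when WT HFHS replicate 1 was left out, and Vwf at 0.73 and Npr3 at 0.48 when GPx4+/- CNTL replicate 1 was left out. Plvap was at -0.10 without GPx4+/- HFHS replicate 4. When the 5 mice high in atrial markers were left out, Vwf was at 0.68, Npr3 at 0.52 and Plvap at 0.17.

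Carnosine in WT mice on HFHS was set against WT HFHS alone. The mean of Vwf in the carnosine group was 0.509 times that of WT HFHS (log2 difference -0.87, SE 0.289). The ratios were 0.627 for Plvap (-0.51, SE 0.257), 0.757 for Npr3 (-0.31, SE 0.189), 0.577 for Ackr1 and 1.02 for Emcn (0.01, SE 0.106). All 5 carnosine mice were below the top 4 WT HFHS mice in Vwf, and WT HFHS replicate 1 (11.5) lay among them. The pan-endothelial genes had values of both signs, with Kdr at 0.24 (SE 0.179), Cdh5 at 0.07 (SE 0.0660), Tek at -0.02 (SE 0.0724), Nos3 at -0.07 (SE 0.0840) and Pecam1 at -0.11 (SE 0.0948). limma called 0 of 9 members and 0% of all genes. An unadjusted p under 0.05 was found for 0 of the 5 pan-endothelial genes and for 4.21% of all genes. No member separated the groups, against 0.609% of tested genes. This contrast and the diet contrast in WT share the WT HFHS mice, so a high WT HFHS group enters both with opposite sign. When WT HFHS replicate 1 was left out the carnosine values were -1.15 for Vwf, -0.76 for Plvap and -0.51 for Npr3, and without replicate 4 they were -0.69, -0.36 and -0.22, with Pecam1 at -0.03. Kdr was at 0.07 without WT HFHS + Carnosine replicate 5, the mouse with 72.3 scaled TPM. Without the carnosine mouse high in atrial markers Vwf was at -0.98, with -0.33 for Npr3 and -0.56 for Plvap.

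Genotype was compared within each diet. These contrasts use the same WT CNTL and WT HFHS mice as the WT diet contrast, so a low WT CNTL group and a high WT HFHS group enter them with opposite signs, and the values are a description. On CNTL the log2 difference between GPx4+/- and WT was 0.53 for Vwf (SE 0.355), 0.64 for Plvap (SE 0.352), 0.39 for Npr3 (SE 0.319) and 0.11 for Emcn (SE 0.0929). Tek was at 0.15 (SE 0.0590) and Kdr at -0.13 (SE 0.178). limma called 0 of the 9 members on CNTL, against 0.0501% of all genes. An unadjusted p under 0.05 was found for 1 of the 5 pan-endothelial genes and for 6.28% of all genes, and no member separated the groups (0.926% of genes did). Without GPx4+/- CNTL replicate 1, Vwf was at 0.20, Npr3 at 0.03 and Plvap at 0.38. Kdr lay between -0.28 (without WT CNTL replicate 3) and -0.04 (without WT CNTL replicate 2) and Emcn reached 0.20 (without GPx4+/- CNTL replicate 3). Without the 5 mice high in atrial markers Vwf was at 0.48, Npr3 at 0.11, Plvap at 0.57 and Emcn at 0.01.

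On HFHS the log2 difference between GPx4+/- and WT was -0.58 for Vwf (SE 0.355), -0.44 for Plvap (SE 0.352), -0.06 for Npr3 (SE 0.319) and -0.01 for Emcn (SE 0.0929). The pan-endothelial values ran from -0.09 (Pecam1) to 0.20 (Kdr). limma called 0 of 9 members on HFHS, against 0.0501% of all genes, with 0 of the 5 pan-endothelial genes at an unadjusted p under 0.05, against 4.57%. No member separated the groups, which 0.726% of genes did. Without WT HFHS replicate 1 Vwf was at -0.86, Plvap at -0.70 and Npr3 at -0.25, and without WT HFHS replicate 4 they were at -0.40, -0.29 and 0.04. Kdr was at 0.10 without GPx4+/- HFHS replicate 5. Without the mice high in atrial markers Vwf was at -0.78, Npr3 at -0.20 and Plvap at -0.65. Over both diets the genotype difference was -0.02 for Vwf, 0.17 for Npr3 and 0.10 for Plvap. limma called 0 members there, against 0.0584% of all genes, with 0 of the 5 pan-endothelial genes at an unadjusted p under 0.05, against 3.90%. Vwf lay between -0.19 (without GPx4+/- CNTL replicate 1) and 0.07 (without WT CNTL replicate 3), and leaving out the 5 mice high in atrial markers gave -0.05 for Npr3 and -0.04 for Plvap, so none of these signs was stable.

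**Figure D3:**
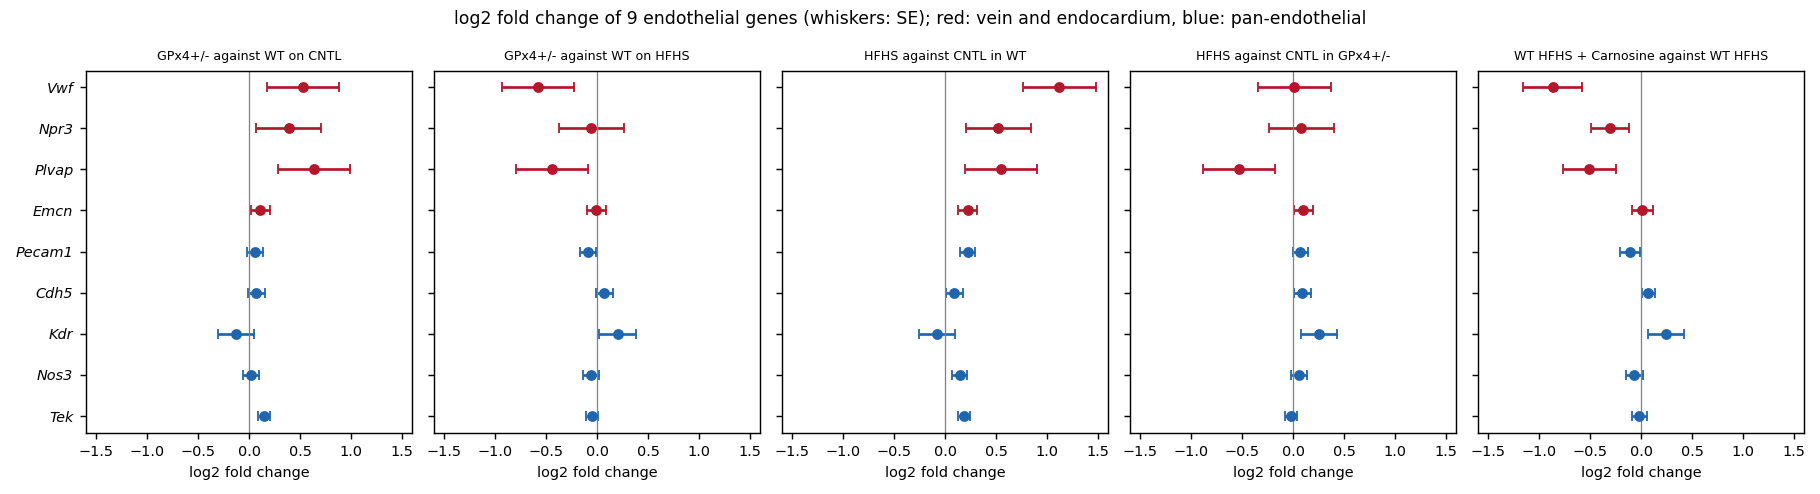
log2 fold change (x axes) of the 9 tested genes (y axis) in the 5 comparisons between groups of 5 mice, with SE as whiskers, red for vein and endocardium genes and blue for pan-endothelial genes. The WT diet panel has Vwf at 1.12 and the carnosine panel at -0.87, while Emcn and the blue genes stay between -0.13 and 0.25 in every panel.

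Mouse by mouse, after the group means were taken away, the genes fell into separate patterns. These correlations are over 25 mice, describe genes chosen with results known, rest on libraries whose scaling the genes of a mouse share, and carry no p. Vwf went with Npr3 (Pearson r 0.88, Spearman rho 0.77) and Plvap (r 0.86, rho 0.75), and Npr3 with Plvap (r 0.89, rho 0.85). Without the 2 mice farthest from the median of Vwf, r was 0.78 for both Npr3 and Plvap. Pecam1 was the pan-endothelial gene that moved with Vwf (r 0.67, rho 0.49, and r 0.53 without those 2 mice). Cdh5 (r -0.46, rho -0.41) and Kdr (r -0.49, rho -0.48) ran against Vwf, and Nos3 had r 0.02 and Tek r -0.01. Without the 5 mice high in atrial markers r with Vwf was 0.79 for Npr3 (rho 0.55), 0.74 for Plvap (rho 0.51) and 0.64 for Pecam1 (rho 0.24) over 20 mice. It was then -0.18 for Cdh5 (rho -0.26), -0.14 for Kdr (rho -0.27) and 0.43 for Nos3 (rho 0.43), so the opposite course of Cdh5 and Kdr was weaker without those mice.

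Emcn did not follow its own set. Its r with Vwf was -0.04, with Npr3 0.03 and with Plvap -0.06, whereas with Kdr it was 0.67 (rho 0.63, and 0.57 without the 2 mice farthest in Emcn). Without the 5 mice high in atrial markers, r between Emcn and Kdr was 0.94 over 20 mice, and -0.17 between Emcn and Vwf. Kdr in turn went with Cdh5 (r 0.56), Nos3 (r 0.52) and Tek (r 0.47). By this measure Vwf, Npr3 and Plvap formed one pattern, and Emcn lay nearer to the VEGF receptor gene than to the vein and endocardium genes it had been grouped with.

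**Figure D4:**
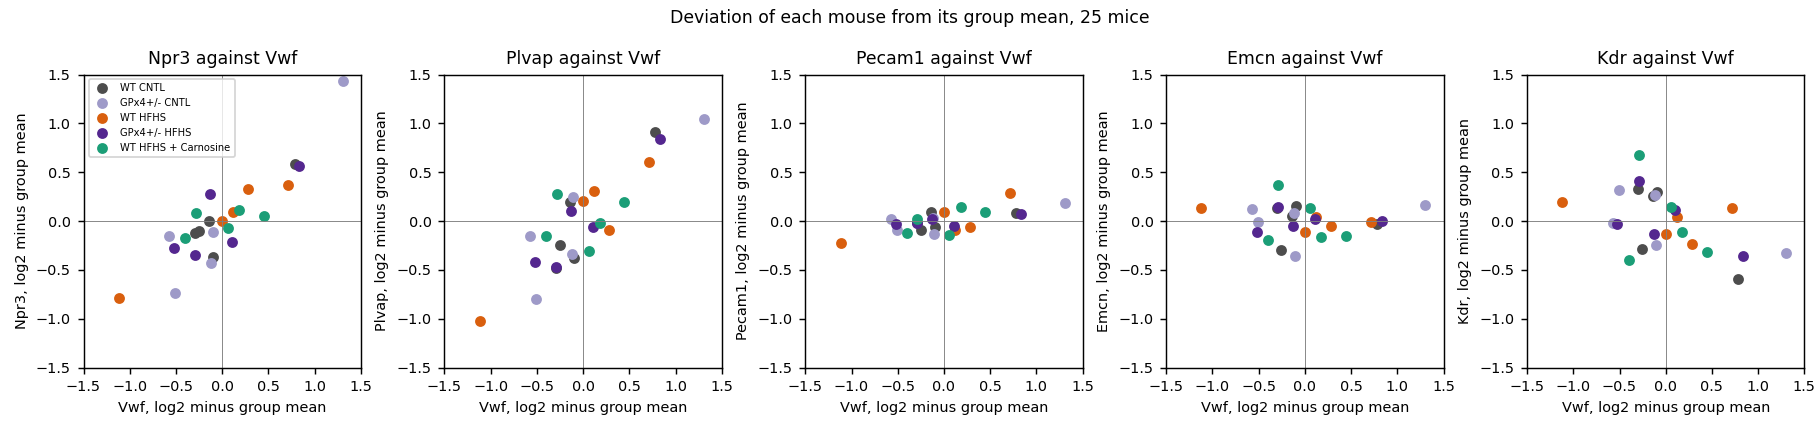
Deviation of 5 genes from their group means (y axes, log2) against that of Vwf (x axes, log2), each point a mouse, coloured by group, 25 mice in all. Npr3 and Plvap climb with Vwf (r 0.88 and 0.86), Pecam1 follows with a flatter slope (r 0.67), Emcn is level (r -0.04) and Kdr declines (r -0.49, and -0.14 without the 5 mice high in atrial markers).

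The genes outside the set that were most like Vwf by the same measure were Smoc1 (r 0.88), Tmem108 (r 0.87), Id2 (r 0.87), Igfbp4 (r 0.87) and Cemip2 (r 0.85). Npr3 was most like Tmem108 (r 0.92), Enpp6 (r 0.91) and Smoc1 (r 0.90), and Plvap like Smoc1 (r 0.93), Unc13b (r 0.87) and Enpp6 (r 0.86). Smoc1 thus stood in all 3 lists, at a mean of only 1.44 scaled TPM. Emcn was most like P4ha1 (r 0.80), Fut8 (r 0.79) and Bves (r 0.78), Pecam1 like Olfr1033 (r 0.82), Gm9973 (r 0.80) and Arsa (r 0.80), and the scarce Ackr1 like Kctd10 (r 0.74), Zbtb49 (r 0.73) and Gm13889 (r 0.71). No gene appeared both in the Emcn list and in a list of the other vein and endocardium genes.

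Markers of other cells moved with Vwf in these libraries. Over 25 mice and within groups, Vwf had r 0.85 with the summed level of 12 other vein genes (Nr2f2, Vcam1 and Mmrn1 among them), 0.80 with 12 other endocardium genes and 0.80 with 7 fibroblast genes. It had r 0.72 with 8 valve genes, 0.70 with 7 macrophage genes, 0.63 with 6 mesothelial genes and 0.60 each with 8 atrial and 5 adipocyte genes, where only 1 mesothelial and 1 adipocyte gene reached a mean of 1 scaled TPM. Against 7 pericyte genes r was -0.62, against 12 capillary genes -0.42, against 12 artery genes 0.21 and against 9 smooth muscle genes 0.25. The smooth muscle sum had medians of 987 scaled TPM in WT CNTL and 1070 in WT HFHS, while the median log2 difference of its genes was 0.85. Its r with Vwf therefore says little about most of these genes. Without the 5 mice high in atrial markers r was 0.73 for the vein list (rho 0.55), 0.67 for endocardium (rho 0.33) and 0.60 for fibroblasts (rho 0.56). It was 0.64 each for valve (rho 0.37) and macrophages (rho 0.49) and 0.45 for smooth muscle (rho 0.08). It was then 0.07 for mesothelium, 0.06 for adipocytes, -0.33 for the atrial list, -0.16 for pericytes and -0.10 for capillaries. Between groups, the smooth muscle genes had a median log2 difference of 0.85 for diet in WT, 0.18 for diet in GPx4+/- and -0.75 for carnosine, with 0 of 9 called by limma in each and 6, 0 and 1 at an unadjusted p under 0.05. The 7 fibroblast genes had medians of 0.39, 0.17 and -0.20, with 0 called by limma in each and 3, 0 and 0 at an unadjusted p under 0.05. Of all tested genes 16.5%, 18.3% and 4.21% had an unadjusted p under 0.05 in these contrasts. Over both genotypes 2 of the 7, Lum (0.55, adjusted p = 0.0395) and Pdgfra (0.29, adjusted p = 0.0472), rose with diet, where 8.33% of all genes were called. The sum of 8 ventricular cardiomyocyte genes ran against Vwf, with r -0.35 over 25 mice and -0.59 (rho -0.37) without the 5 mice. These genes had medians of -0.13, -0.08 and 0.02, with 0 called by limma in each and 4, 2 and 0 at an unadjusted p under 0.05, and over both genotypes 1 of the 8, Myh6, fell by 0.17 on the log2 scale (adjusted p = 0.0314). The 6 tested valve genes had medians of -0.02, 0.16 and -0.97 and the 8 atrial genes -0.40, -1.22 and -0.11, with 0 called by limma in each and 1 atrial gene at an unadjusted p under 0.05, in GPx4+/- mice. The fibroblast sum, for example, was 810 to 901.5 scaled TPM in the 4 low-Vwf WT CNTL mice and 1651 in replicate 3, 1410 in GPx4+/- CNTL replicate 1, 1748 in GPx4+/- HFHS replicate 4 and 1691 in WT HFHS replicate 4. It was also 1522 in WT HFHS + Carnosine replicate 2, with 18.9 scaled TPM of Vwf, and 1012 in WT HFHS replicate 3, with 31.2. The atrial sum was 51.9 to 188 in the 4 WT HFHS mice with high Vwf and 311 in the one with low Vwf. The part of these other cells in the Vwf values was not tested.

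Platelets also carry Vwf made in megakaryocytes. The summed level of 8 platelet and megakaryocyte genes was 15.0 to 21.3 scaled TPM in WT CNTL, 18.1 to 27.7 in WT HFHS and 15.4 to 30.0 in WT HFHS + Carnosine, and Gp1bb, Gp9, Gp6 and Treml1 were below a mean of 1. Its r with Vwf was 0.41, and 0.21 without the 2 mice farthest in Vwf. Lymphatic markers (7 genes) had r 0.51 with Vwf. Hepatocyte markers (6 genes) summed to 1073 scaled TPM in GPx4+/- CNTL replicate 2 and 78.4 in GPx4+/- HFHS replicate 1, against at most 3.74 in WT mice. Both mice entered the genotype contrasts and the GPx4+/- diet contrast, and the part of this RNA in the values was not tested.

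**Figure D5:**
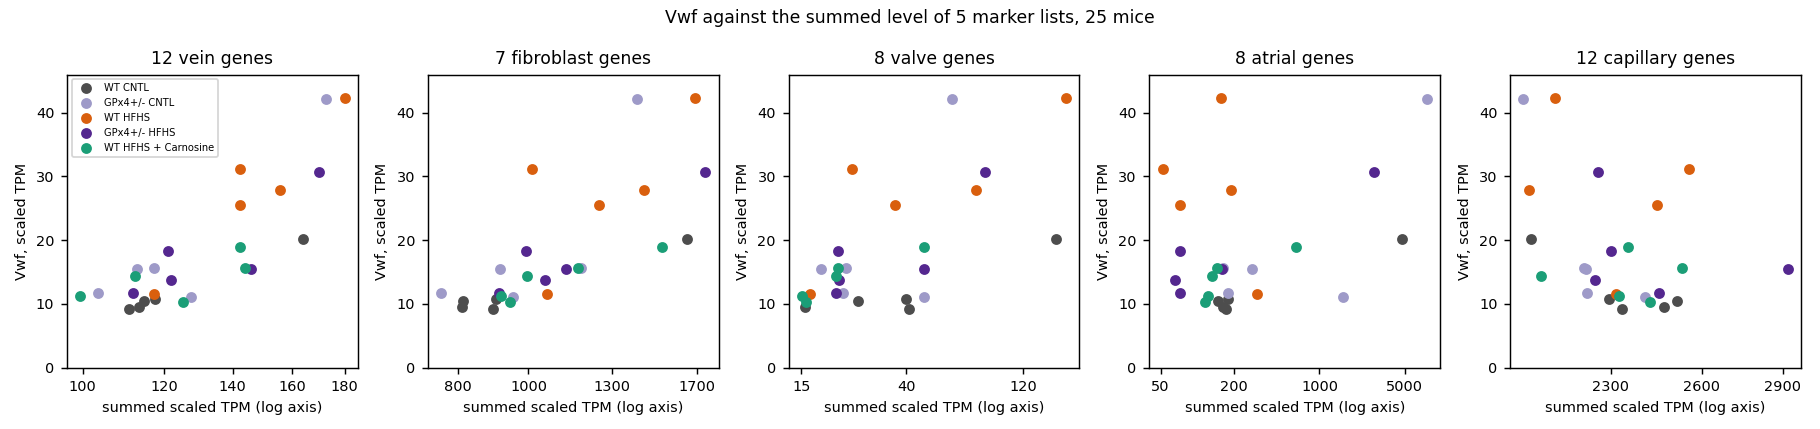
Scaled TPM of Vwf (y axes, from 0) against the summed scaled TPM of 5 marker lists (x axes, log scale), each point a mouse coloured by group, 25 mice in all. Vwf climbs with the vein, fibroblast and valve sums (within-group r 0.85, 0.80 and 0.72). Without the 5 mice high in atrial markers these are r 0.73, 0.60 and 0.64 (rho 0.55, 0.56 and 0.37). Of the 5 WT HFHS mice 4 have high Vwf at atrial sums of 51.9 to 188. No such climb is seen against the capillary sum (r -0.42, or -0.10 without the 5 mice).

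Other vascular genes were counted by list. These lists too were drawn up with earlier results of these data known, so their counts are not independent evidence. They stand beside the shares of all tested genes called (1.18% for diet in WT, 3.34% for diet in GPx4+/-, 8.33% over both genotypes and 0% for carnosine), the shares at an unadjusted p under 0.05 (16.5%, 18.3%, 24.5% and 4.21%) and a median over all tested genes that was within 0.01 of 0 in each comparison. Of the 12 vein genes 9 were tested, since Selp, Sele and Tll1 were below the filter. In the WT diet contrast 0 of these 9 were called by limma, 3 had an unadjusted p under 0.05 (16.5% of all genes) and their median log2 difference was 0.28. The values were 0.59 for Mmrn1 (adjusted p = 0.190) and 0.30 for Lrg1 (adjusted p = 0.207). With carnosine the median was -0.22, with 0 called and 2 at an unadjusted p under 0.05, Nr2f2 (COUP-TFII, the transcription factor of venous identity) at -0.25 (adjusted p = 0.947) and Vcam1 at -0.34 (adjusted p = 0.947). In GPx4+/- mice the diet median of the vein list was 0.05. The 8 tested endocardium genes had medians of 0.19 for diet in WT, -0.08 for diet in GPx4+/- and -0.15 for carnosine, again with 0 called in each and 1, 1 and 2 at an unadjusted p under 0.05.

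Some arterial genes were called, again in a list chosen with results known. In the WT diet contrast, where 1.18% of all genes were called, 2 of 11 tested artery genes rose by limma, Efnb2, the ephrin ligand of arterial endothelium, by 0.42 (SE 0.0841, adjusted p = 0.0188) and Gja4, a gap junction connexin, by 0.34 (SE 0.0817, adjusted p = 0.0459). In GPx4+/- mice 1 of 11, Alpl, rose by 0.65 (SE 0.115, adjusted p = 0.00509), against 3.34% of all genes called. Over both genotypes Alpl, Efnb2, Sema3g and Gja4 rose, 4 of 11 against 8.33% of all genes. The capillary list, with 12 of 12 tested, had 1 gene that rose, the fatty acid transporter Cd36, in GPx4+/- mice (0.28, SE 0.0724, adjusted p = 0.0394, with 3.34% of all genes called), and medians of -0.02, 0.02 and -0.06 for diet in WT, diet in GPx4+/- and carnosine. Of 18 further pan-endothelial genes 0 were called by limma in either single diet contrast (5 and 2 at an unadjusted p under 0.05), and over both genotypes Mmrn2 (0.20), Cldn5 (0.43) and S1pr1 (0.19) rose, 3 of 18 against 8.33% of all genes. Of 7 tested lymphatic genes 0 were called by diet or carnosine, with medians of 0.27, 0.11 and -0.33 and 1, 0 and 1 at an unadjusted p under 0.05.

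The machinery that stores and secretes the Vwf protein was counted in the same way. Of 17 genes of Weibel-Palade bodies 13 were tested and 0 were called in the single diet or carnosine contrasts (4, 2 and 0 at an unadjusted p under 0.05). Over both genotypes Vamp8, a vesicle SNARE, fell by 0.14 on the log2 scale (adjusted p = 0.0422 by limma), 1 of 13 where 8.33% of all genes were called, a share near the background. P-selectin (Selp), the other main cargo, was below the filter. Among 13 genes whose products bind, cleave, clear or fold the protein or its partner factor VIII, 7 were tested and 1, Mcfd2, was called, against 1.18% of all genes for diet in WT and 3.34% in GPx4+/- mice. Mcfd2, a subunit of the cargo receptor that exports factors V and VIII from the endoplasmic reticulum, rose by 0.20 in WT (SE 0.0439, adjusted p = 0.0344) and 0.21 in GPx4+/- mice (SE 0.0439, adjusted p = 0.0123) with diet. Adamts13, the protease that trims the multimers, and F8 itself were below the filter in this tissue.

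Pathways of the other members gave few calls, and the single calls over both genotypes named here are to be read against the 8.33% of all genes called there. Of 7 tested natriuretic peptide genes, Npr3 included, Mme, the neprilysin that degrades the peptides, rose with diet in WT (0.41, SE 0.0994, adjusted p = 0.0490), 1 of 7 against 1.18% of all genes. The VEGF list, Kdr included, had 10 tested genes and 0 called in the single diet or carnosine contrasts (1, 1 and 0 at an unadjusted p under 0.05), and over both genotypes the lymphangiogenic ligand Vegfd rose by 0.42 (adjusted p = 0.0452), 1 of 10. The angiopoietin list, Tek included, had 6 tested genes and 0 called in the same contrasts (2, 1 and 0 at an unadjusted p under 0.05), with 1 of 6, Svep1, rising by 0.32 over both genotypes (adjusted p = 0.0334). Nitric oxide genes other than Nos3 (14 of 14 tested with it) gave 0 calls with diet in WT, diet in GPx4+/- and carnosine, with 2, 4 and 2 at an unadjusted p under 0.05. Of 11 tested endothelial junction genes, Cdh5 and Pecam1 included, 1, Cldn5, was called over both genotypes. Of 14 tested endothelial transcription factors 1, Klf2, the flow-induced Krüppel-like factor, rose over both genotypes by 0.30 (adjusted p = 0.0191), and 0 were called in WT, GPx4+/- or carnosine alone (2, 1 and 2 at an unadjusted p under 0.05).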

How the data were processed

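Heart RNA of 25 mice was sequenced as stranded poly(A) mRNA libraries. The sample titles name heart tissue, and the study's methods name left ventricular tissue for RNA extraction. High atrial markers were present in 5 of the libraries. The authors deposited TPM (length-corrected transcript shares with a total of 1000000 per library) for 119215 transcripts, and the submitters' processing notes name kallisto 0.43.1, sleuth 0.30.0 and GRCm38, whereas the study's methods name STAR and DESeq2. The study's methods state an approximate read depth for the samples as a whole, but TPM do not keep that of each library, so no counting error was computed. The groups follow the sample labels. Values were assigned to mice by library name, since the column positions stated in the sample descriptions disagree with those names.

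TPM were summed per gene over the 116772 transcripts found in GENCODE mouse M21 (2443 were not), giving 35969 genes. Libraries were scaled by median ratios over 11879 genes (factors 0.864 to 1.16). Between 11652 and 12305 genes reached 1 TPM in a library. The 11984 genes with a mean of at least 1 scaled TPM were fitted as log2(scaled TPM + 0.5) with limma 3.58.1 (trend, R 4.3.3), the 4 groups without carnosine in one model and the 10 WT HFHS mice in another, with Benjamini-Hochberg adjustment. The added 0.5 understates changes of low genes. Exact two-sided permutation tests of the pan-endothelial genes, 25 in all with 3 unadjusted p under 0.05, are not reported singly, since all but those of the GPx4+/- diet contrast use WT groups from which the genes were chosen. The fits were tested on simulated data.

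The genes and lists were chosen with earlier results of these data known. Named genes are all 10 members, the genes most like 6 of them by within-group Pearson r, and called or smallest-p genes of the lists. Alternatives changed the pseudocount, filter, scaling, transcripts, weights, replicate block and single mice. Leaving out the 5 mice with high atrial markers (also from the correlations), these and WT HFHS replicate 4, or Ackr1, was chosen after seeing the data.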

Additional observations from a re-analysis of the deposited data

Results flagged for a closer look

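Over 55 groups of 5 values (each member, and the vein and endocardium mean minus the pan-endothelial mean, in each group), 7 had a mouse set apart from the others by more than 0.71 of the whole range. Independent groups would give about 1 in 20, or 2.75. These groups are not independent, since Vwf, Npr3 and Plvap moved together and the difference is built from the members. Nothing is therefore read from the count. Vwf in WT CNTL replicate 3 was 20.1 scaled TPM with the next mouse at 10.7 (gap 0.865 of the range), and Vwf in GPx4+/- CNTL replicate 1 was 42.2 with the next at 15.6 (0.856). Npr3 in that GPx4+/- CNTL mouse was 14.6 with the next at 4.65 (0.846). The vein and endocardium mean minus the pan-endothelial mean in WT CNTL replicate 3 was -2.10 with the next at -2.82 (0.842). Both mice carried high atrial markers, and their part in these values was not tested.

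The other 3 lay in mice without high atrial markers. Ackr1 in WT CNTL replicate 4 was 0.285 scaled TPM with the next mouse at 0.152 (0.839). Tek in GPx4+/- CNTL replicate 4 was 20.1 with the next at 17.4 (0.755), and Tek in WT HFHS replicate 3 was low, at 15.6 with the next at 18.4 (0.885).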

How the results depend on the processing

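The number of members called stayed 0 under every alternative run for the genotype contrasts, the diet contrast in GPx4+/- mice, the interaction and the carnosine contrast. For diet in WT it was 1 (Vwf) with array weights, without the 5 mice with high atrial markers, and without these and WT HFHS replicate 4. For diet over both genotypes it was 1 (Vwf) without those 5 mice, and leaving out 1 mouse at a time gave 0 to 1 (Vwf without GPx4+/- CNTL replicate 1, Pecam1 without WT HFHS replicate 1). The genes were chosen with these contrasts known, so these counts are a description and support nothing, and the cause was not tested. With the replicate block 0 members were called in each comparison. Same-numbered mice did not deviate together (mean correlation -0.00957 over 50 pairs, from -0.341 to 0.234), so the numbers were not taken to pair mice. The vein and endocardium mean minus the pan-endothelial mean moved in every group, in WT CNTL, WT HFHS, carnosine, GPx4+/- CNTL and GPx4+/- HFHS to -3.07, -2.59, -3.04, -2.67 and -2.88 with pseudocount 0.1, to -2.50, -2.13, -2.50, -2.20 and -2.37 with pseudocount 1 and to -2.81, -2.43, -2.82, -2.51 and -2.69 with protein-coding transcripts only. Without Ackr1 it was -2.02 in WT CNTL, -1.53 in WT HFHS, -1.97 with carnosine, -1.64 in GPx4+/- CNTL and -1.81 in GPx4+/- HFHS. Leaving out 1 mouse gave -2.89 to -2.68, -2.41 to -2.16, -2.76 to -2.69, -2.59 to -2.29 and -2.71 to -2.50 in the same order. TPM as deposited shifted the median of all genes by -0.10 for diet in GPx4+/- mice, where uncalled values of Emcn (-0.01), Pecam1 (-0.04), Cdh5 (-0.02) and Nos3 (-0.04) lay below 0. A stricter filter gave no value for Plvap. TPM do not give the depth of each library, which limits statements on Ackr1 most.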
